A study of Neurospora crassa with 6 samples.

Results

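The comparison described here is staurosporine against its solvent DMSO in standard minimal medium, in the wild type of Neurospora crassa, a filamentous fungus. It is described across the 7167 of 9691 listed genes whose mean FPKM over both libraries was at least 1. FPKM is the number of sequenced fragments per kilobase of transcript, on a scale set for each library. A value thus depends on how that scale was set, and it can depend on what else the library holds. Both groups are 1 library each: conidia, the asexual spores, were shaken for 6 h in minimal medium at constant light, and then received staurosporine at 20 µM or DMSO for 1 more hour. Poly(A) RNA of each culture was sequenced. The series holds 4 more libraries, a staurosporine and a DMSO library for each of a 0 Ca2+ and a 20 mM CaCl2 medium, and these enter below only as values set beside the standard medium. With 1 library a side there is no replicate error and no test, and genes are described by a rule of size: a log2((FPKM + 1) ratio) of at least 1, which is a level at least 2 times higher, or of -1 or less, at least 2 times lower. Adding 1 to each FPKM understates the ratio of weakly expressed genes. In RNA from whole cultures, fewer cells of a kind and less RNA per cell cannot be told apart.

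Staurosporine is a bacterial alkaloid that occupies the ATP site of many protein kinases, and in N. crassa it is used to set off cell death. Germinating conidia are a growth phase in which the cell spends much of its transcription on ribosomes, extends polar germ tubes and fuses with its neighbours through short bridges. Fungi meet toxic small molecules with membrane exporters of the ABC and major facilitator families, often placed under zinc cluster transcription factors.

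Of 7167 genes, 958 (13.4%) were at least 2 times higher and 1071 (14.9%) at least 2 times lower, while 5138 (71.7%) stayed within 2 times. The far ends were of like size, with 49 genes at least 8 times higher and 51 at least 8 times lower. The median log2 ratio over all genes was 0.11, and the middle 50% of genes lay between -0.54 and 0.64. Library-to-library difference without the drug was smaller: against the standard DMSO library, the 0 Ca2+ DMSO library had 2.99% of genes at least 2 times higher and 2.33% lower, and the 20 mM CaCl2 DMSO library 2.12% higher and 0.801% lower. Those differences also hold the change of medium. Of the 958 higher genes, 929 were above all 3 DMSO libraries in the staurosporine library, and 467 (48.7%) were above the highest of them by at least 2 times. Of the 1071 lower genes, 1046 were below all 3 DMSO libraries, and 771 (72.0%) were below the lowest of them by at least 2 times. The standard DMSO library is among the 3 and sets the calls, so being above or below it follows from the rule. Only the 0 Ca2+ and 20 mM CaCl2 DMSO libraries could lower these counts.

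**Figure D1:**
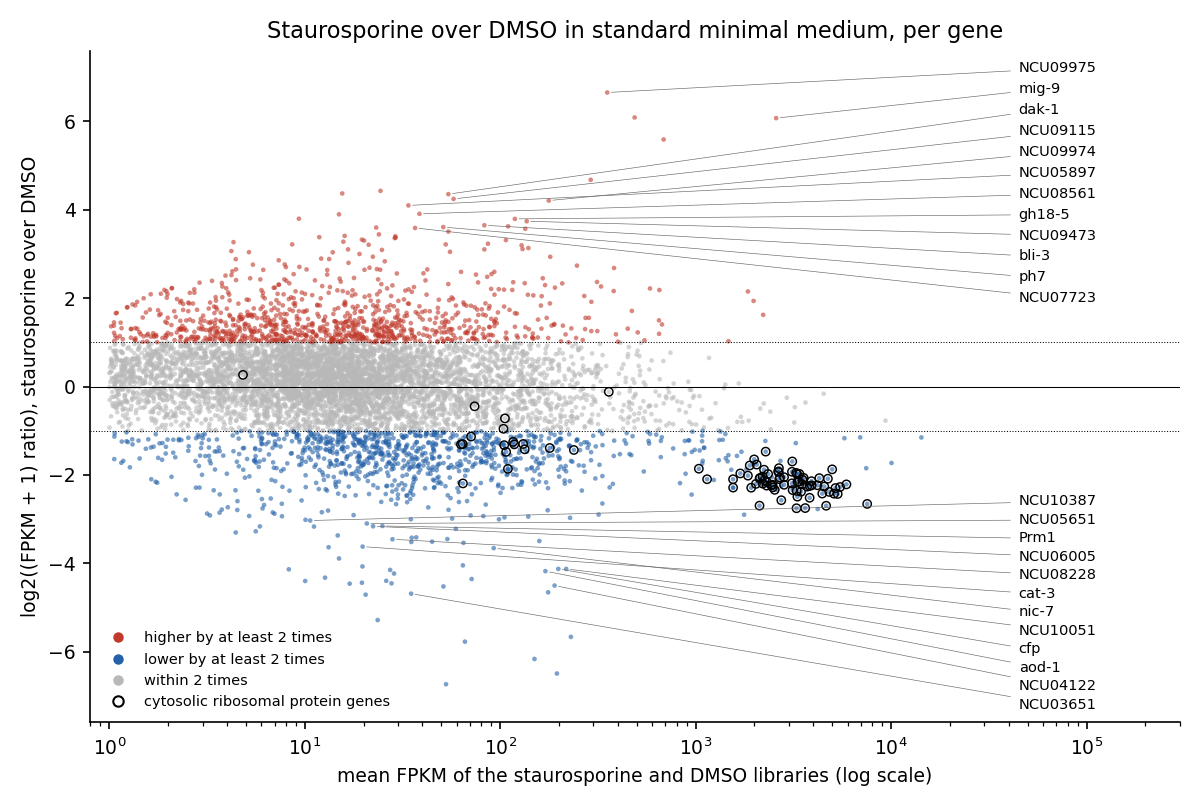
Each point is 1 of 7167 genes; the x axis is the mean FPKM of both libraries on a log scale and the y axis the log2((FPKM + 1) ratio of staurosporine over DMSO, with dotted lines at 2 times in either direction. The 70 ribosomal protein genes with a mean of at least 1000 FPKM form a cloud near -2, and the named genes at either end lie at lower levels, except mig-9.

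The scale on which the libraries are compared decides how many genes count as higher or lower. Deposited FPKM summed to 500315 over all genes in the staurosporine library, against 940590 in the DMSO library, a share of 53.2%. Cytosolic ribosomal protein genes alone made up 65.1% of that difference in sum; without them the staurosporine library summed to 419368 FPKM and the DMSO library to 572907 FPKM, a share of 73.2%. With both libraries rescaled to an FPKM sum of 1000000, the median of all genes shifted by 0.83, and 3500 genes were at least 2 times higher against 367 lower. Over the 9141 genes with a length, FPKM times gene length over 1000 summed to 1141610 with staurosporine and 1922850 with DMSO. The deposited values thus do not hold an equal total in each library. With both libraries rescaled to the same sum of FPKM times gene length, the shift was 0.68, with 2897 genes higher and 469 lower. Higher genes were thus 47.2% of all calls as deposited, 90.5% on the first rescaling and 86.1% on the second. Positions relative to the median of all genes depend less on this shift, so the lists below are read against that median of 0.11. They are not free of it, since the 1 FPKM added and the filter act unevenly on weakly expressed genes. Plant polysaccharide hydrolases had a median of 0.71 beside 0.11 as deposited, and 1.24 beside 0.93 on the FPKM-sum rescaling. A median said to become positive has changed sign on a rescaling.

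The highest ratio belonged to NCU09975, annotated as multidrug resistance protein 3 and known in this fungus as abc-3, an ABC exporter tied to staurosporine resistance. It had 699.9 FPKM in the staurosporine library, against 5.95 FPKM in the DMSO library, a log2 ratio of 6.66. Its chromosomal neighbour NCU09974, which encodes the zinc cluster regulator czt-1 of drug resistance, had 337 FPKM with staurosporine and 17.3 FPKM with DMSO (4.21). The pyridoxal reductase gene mig-9 (NCU09141), of vitamin B6 metabolism, had 5089.7 FPKM with staurosporine and 74.5 FPKM with DMSO (6.08). This made mig-9 the third most abundant transcript of the staurosporine library, after tef-1 (NCU02003), which encodes elongation factor 1 alpha, and a thiazole biosynthetic gene of vitamin B1 synthesis (NCU06110). The P450 gene NCU09115, annotated as a 52A11 type, had 111 FPKM with staurosporine and 4.87 FPKM with DMSO (4.25). In the other media these genes were high with staurosporine too: NCU09975 had 158 FPKM against 9.31 FPKM with DMSO in 0 Ca2+ medium, and 593 against 5.55 FPKM in 20 mM CaCl2 medium. NCU09974 had log2 ratios of 3.09 and 4.89 there, mig-9 of 4.55 and 6.32, and NCU09115 of 3.33 and 4.72.

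The other ABC transporter genes stood far behind NCU09975, though several of them were higher. Among the 18 ABC transporter genes 16 passed the filter, and 7 of them (43.8%, against 13.4% of all genes) were at least 2 times higher and 1 lower, with a median log2 ratio of 0.82 beside 0.11 for all genes. After NCU09975 the largest were NCU02544, with 41.7 FPKM with staurosporine and 7.56 FPKM with DMSO (2.32), the MDR-type gene NCU07546 (29.4 and 5.71 FPKM, 2.18) and NCU04021 (22.2 and 4.32 FPKM, 2.12). In the major facilitator list, which leaves out sugar carriers, 39 of 55 genes passed the filter, 6 were higher (15.4%, close to the 13.4% of all genes) and 3 lower, and the median was 0.51. NCU04656 was the most abundant of them, with 544 FPKM with staurosporine and 112 FPKM with DMSO (2.27).

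Ribosomal protein genes, the most abundant class of the DMSO library, were lower almost to a member. Of the 88 genes annotated as cytosolic ribosomal proteins, 83 (94.3%, against 14.9% of all genes) were at least 2 times lower and 0 were higher. The median log2 ratio was -2.08 over the 55 genes of the large subunit and -2.10 over the 33 of the small subunit, beside 0.11 for all genes. Together they summed to 80948 FPKM with staurosporine and 367682 FPKM with DMSO, which is 16.2% and 39.1% of the sum of each library. In the staurosporine library 86 of the 88 were below all 3 DMSO libraries. For the 83 lower genes, being below the standard DMSO library follows from the rule. On FPKM rescaled to a sum of 1000000 the medians of both subunits were still -1.17 and -1.19.

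Ratios of single ribosomal genes ran from -2.75 to 0.27. The first genes given here were picked for the size of their ratio or for their level. The fusion gene of ubiquitin and ribosomal protein S27a, ubi::crp-6 (NCU04553), had 2067.1 FPKM with staurosporine and 13025 FPKM with DMSO (-2.66). NCU06661 for L22 had 941 FPKM with staurosporine and 6332 FPKM with DMSO (-2.75), and NCU03302 for L36 had 847 and 5716 FPKM (-2.75). NCU03988 for L18, the most abundant of the large subunit, had 2096 FPKM with staurosporine and 9722 FPKM with DMSO (-2.21). The 70 genes with at least 400 FPKM in the DMSO library, which ranged from 1628 to 13025 FPKM there, were lower in 70 of 70 cases with a median of -2.17. The other 18, from 4.29 to 374 FPKM with DMSO, had a median of -1.30 and 13 were lower. Those 18 carry the same kind of product name, several of them a name that a more abundant locus also carries, and the files do not say whether such a locus serves the cytosolic or the mitochondrial ribosome. The exceptions to the rule included NCU06048 for S30, with 345 FPKM with staurosporine and 374 FPKM with DMSO (-0.12), and NCU04614 for L19, with 5.36 and 4.29 FPKM (0.27).

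Most ribosome biogenesis genes were lower as well, while the other factors of translation and transcription were mixed. Biogenesis genes process ribosomal RNA and assemble the subunits in the nucleolus. They were at least 2 times lower in 55 of 63 cases (87.3%, against 14.9% of all genes) and higher in 0, with a median of -1.57. The SDA1 gene NCU09488 had 6.22 FPKM with staurosporine and 43.0 FPKM with DMSO (-2.61), and the 60S biogenesis gene NCU00105 had 15.8 and 95.6 FPKM (-2.52). On the FPKM-sum rescaling the biogenesis median was -0.70. Of 37 translation factor genes, 17 (45.9%) were lower and 0 higher, with a median of -0.96. Among them tef-1 had 8875 FPKM with staurosporine and 19708 FPKM with DMSO (-1.15). The eIF4A gene NCU07420, an RNA helicase of translation initiation, had 498 FPKM with staurosporine and 1664 FPKM with DMSO (-1.74). Aminoacyl-tRNA synthetase genes, which charge transfer RNA, stood nearer to the bulk: 7 of 37 were lower (18.9%, against 14.9% of all genes), and the median of -0.41 became 0.45 on the FPKM-sum rescaling. RNA polymerase genes had 6 of 20 lower with a median of -0.79, which became 0.11 on that rescaling. The lowest were NCU02533, a subunit of polymerases I and III with 16.99 FPKM with staurosporine and 60.03 FPKM with DMSO (-1.76), and NCU02605, a subunit common to all nuclear polymerases (49.0 and 169 FPKM, -1.76).

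The nuclear genes for mitochondrial proteins divided by function. Mitochondrial ribosomal protein genes were at least 2 times lower in 20 of 24 cases (83.3%, against 14.9% of all genes), with a median of -1.53. Genes of mitochondrial protein import and assembly were lower in 20 of 29 (69.0%), with a median of -1.50. NCU08120, a mitochondrial ribosomal gene, had 38.4 FPKM with staurosporine and 192 FPKM with DMSO (-2.29), and the import pore gene tom5 (NCU02474) had 31.2 and 169.5 FPKM (-2.40). Respiratory complexes II to V, with cytochrome c, had 19 of 26 genes lower (73.1%) and a median of -1.15, which was -0.24 on the FPKM-sum rescaling. The cytochrome c gene cyc-1 (NCU01808), the electron carrier between complexes III and IV, stood out with 418 FPKM with staurosporine and 3123 FPKM with DMSO (-2.90). The other members of that list lay between -1.68, for qcr8 (NCU08947), and -0.41, for tca-10 (NCU00959). Complex I, the proton-pumping NADH dehydrogenase, had only 2 of 31 genes lower (6.45%, against 14.9% of all). Its median of -0.42 became 0.48 on the FPKM-sum rescaling.

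A gene of the respiratory bypass and a flavohemoglobin gene were among the 12 lowest genes with a name. The alternative oxidase gene aod-1 (NCU07953), whose enzyme passes electrons to oxygen around complexes III and IV, had 16.95 FPKM with staurosporine and 324 FPKM with DMSO (-4.18). NCU10051, a flavohemoglobin gene of the family that detoxifies nitric oxide, had 22.7 FPKM with staurosporine and 413 FPKM with DMSO (-4.12), and its paralog NCU02096 had 1.37 and 13.9 FPKM (-2.65). The external alternative NADH dehydrogenase gene nde-2 (NCU08980) had 109 FPKM with staurosporine and 351 FPKM with DMSO (-1.68), whereas nde-1 (NCU05225) had 15.7 and 15.4 FPKM (0.03). Of the 7 genes of this list that passed the filter, 4 (57.1%, against 14.9% of all) were lower and the median was -1.68. Mitochondrial carriers, which exchange metabolites across the inner membrane, had 11 of 30 genes lower (36.7%, against 14.9% of all). Their median of -0.75 became 0.11 on the FPKM-sum rescaling. The ADP/ATP carrier gene aac (NCU09477) had 3246 FPKM with staurosporine and 11677 FPKM with DMSO (-1.85). The exception was NCU08561, the succinate and fumarate carrier that serves growth on acetate and fatty acids in yeast, with 73.3 FPKM with staurosporine and 3.94 FPKM with DMSO (3.91).

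Some central carbon genes lay far out, in opposite directions. The fermentation gene cfp (NCU02193), for pyruvate decarboxylase, had 20.6 FPKM with staurosporine and 376 FPKM with DMSO (-4.13), and adh-1 (NCU01754), for alcohol dehydrogenase, had 8.85 and 36.7 FPKM (-1.94). The lowest pair of genes with a name are annotated as enzymes that use malate, and no metabolite was measured. NCU03651, an NADP-dependent malic enzyme gene, had 1.69 FPKM with staurosporine and 68.3 FPKM with DMSO (-4.69). NCU04122, a malate dehydrogenase gene, had 15.1 and 364 FPKM (-4.50). The gluconeogenic gene acu-6 (NCU09873), for phosphoenolpyruvate carboxykinase, had 2.24 FPKM with staurosporine and 22.2 FPKM with DMSO (-2.84). The glyoxylate cycle genes stood on the other side: acu-3 (NCU04230), for isocitrate lyase, had 319.7 FPKM with staurosporine and 40.9 FPKM with DMSO (2.94), and acu-9 (NCU10007), for malate synthase, had 347 and 68.0 FPKM (2.34). The methylcitrate cycle, which clears propionyl-CoA, was higher through tca-2 (NCU02482, 28.5 and 7.75 FPKM, 1.75), NCU02481 (1.73) and NCU00680 (1.10). In the list of the TCA and glyoxylate cycles 5 of 27 genes were higher and 5 lower. Each share is 18.5%, beside 13.4% and 14.9% of all genes. The median of that list, -0.48, became 0.43 on the FPKM-sum rescaling.

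Several genes of storage sugars, glycerol and fatty acid synthesis were higher. Among 19 storage sugar and glycerol genes 6 (31.6%, against 13.4% of all) were at least 2 times higher and 2 (10.5%, against 14.9%) lower, with a median of 0.60. Here dak-1 (NCU03779), for dihydroxyacetone kinase, had 104 FPKM with staurosporine and 4.15 FPKM with DMSO (4.36), the gene gla-1 (NCU01517), for a starch-degrading glucoamylase, had 45.8 and 5.56 FPKM (2.83), and the glycogen synthase gene gsy-1 (NCU06687) had 232 and 92.9 FPKM (1.31). The glycerol kinase gene NCU06005 went the other way, with 3.70 FPKM with staurosporine and 41.0 FPKM with DMSO (-3.16). Fatty acid and acetyl-CoA synthesis had 9 of 17 genes higher (52.9%, against 13.4% of all) and 2 lower, with the highest median of the lists, 1.05. With the length trend removed this median was 0.68, below that of 4 other lists, the conidiation list at the top with 0.94, and at a minimum mean of 10 FPKM the ABC transporters had a higher one, 1.16. The largest ratio in it was that of NCU09473, a ketoacyl reductase gene by its product name, with 255 FPKM with staurosporine and 18.1 FPKM with DMSO (3.74). Both genes of ATP citrate lyase, the enzyme that supplies cytosolic acetyl-CoA, were abundant: NCU06785 had 3023 FPKM with staurosporine and 679 FPKM with DMSO (2.15), and NCU06783 had 3346 and 1085 FPKM (1.62). The acetyl-CoA carboxylase gene NCU08535, of the first committed step, had 525 FPKM with staurosporine and 101 FPKM with DMSO (2.37). The fatty acid synthase subunit genes cel-1 (NCU07308) and cel-2 (NCU07307), which are chromosomal neighbours, had log2 ratios of 1.05 and 1.10. The 2 genes that were lower were the desaturase gene NCU09497 (-1.32) and acp-1 (NCU05008, -1.26), the acyl carrier protein of mitochondria.

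Some genes of fatty acid breakdown were higher too. In the fatty acid oxidation and peroxisome list 15 of 62 genes (24.2%, against 13.4% of all) were higher and 2 lower, with a median of 0.50. The acyl-CoA synthetase gene NCU03929, which activates fatty acids, had 149 FPKM with staurosporine and 16.5 FPKM with DMSO (3.10), and the acyl-CoA dehydrogenase genes acd-1 (NCU02287) and acd-2 (NCU08924) had log2 ratios of 2.55 and 2.20. Of 17 sugar transporter genes 7 (41.2%, against 13.4% of all) were higher and 1 lower, with a median of 0.69. The largest was NCU05897, annotated as an L-fucose permease, with 64.9 FPKM with staurosporine and 2.85 FPKM with DMSO (4.10). The glucose transporter gene hgt-1 (NCU10021) had 408 and 138 FPKM (1.56).

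**Figure D2:**
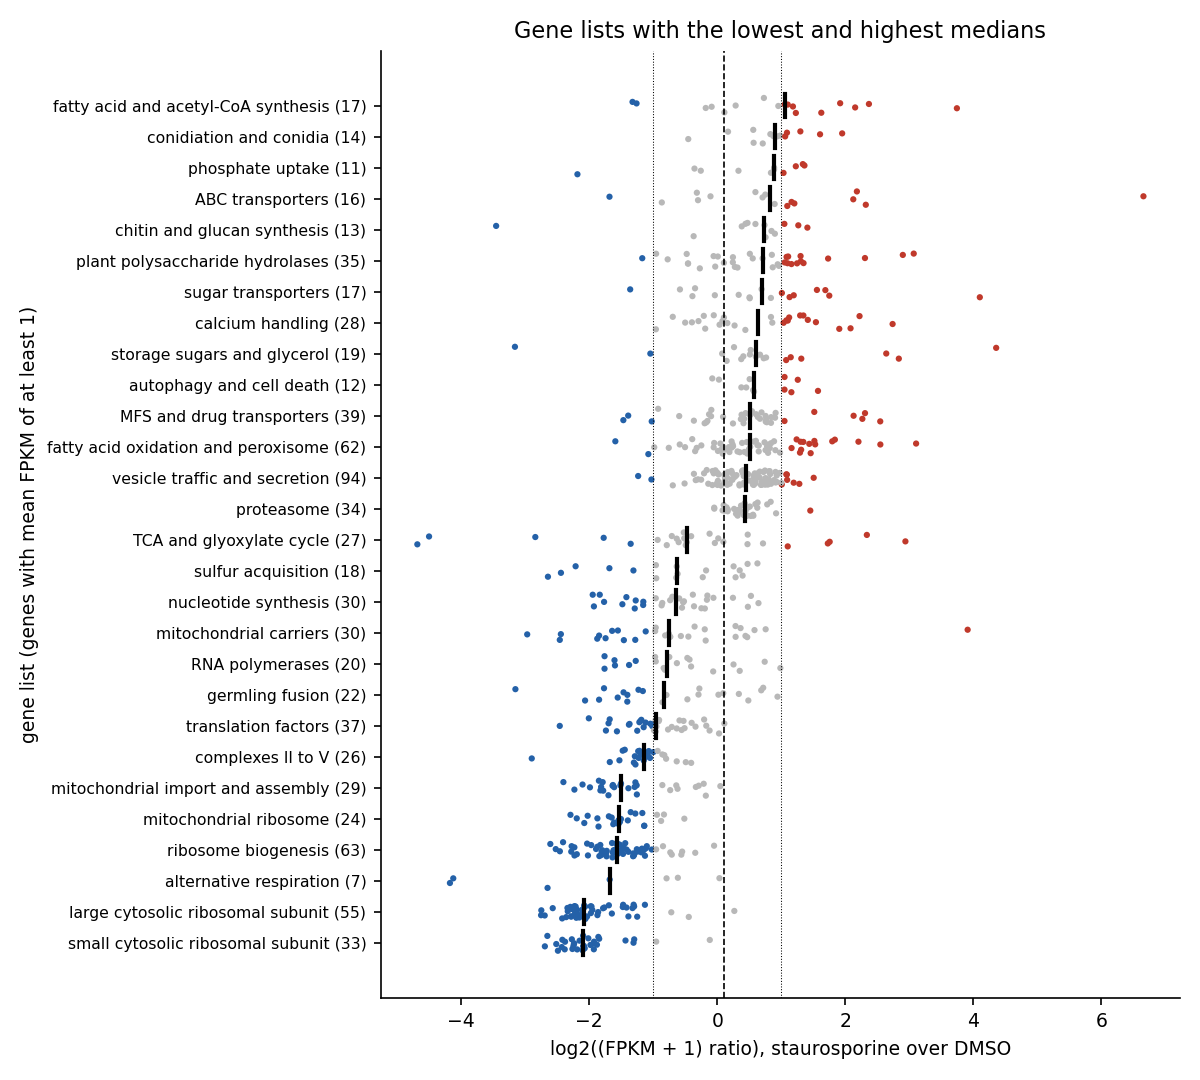
Each row is a gene list with the number of its genes that passed the filter, each point a gene at its log2((FPKM + 1) ratio of staurosporine over DMSO, each black bar the list's median; the dashed line is the median of all genes, 0.11, and dotted lines mark 2 times. The 14 lists with the highest and the 14 with the lowest medians are drawn, from 1.05 for fatty acid and acetyl-CoA synthesis to -2.10 for the small ribosomal subunit.

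Nitrogen and building-block genes were split by pathway. Of 82 amino acid synthesis genes 16 (19.5%, against 14.9% of all) were at least 2 times lower and 2 (2.44%, against 13.4%) higher. The median of -0.47 became 0.43 on the FPKM-sum rescaling. The lowest belonged to aromatic amino acids, with aro-6 (NCU05548) at 79.0 FPKM with staurosporine and 348 FPKM with DMSO (-2.13). The higher ones were both of arginine synthesis: arg-3 (NCU02677), for carbamoyl-phosphate synthase, had 623 FPKM with staurosporine and 138 FPKM with DMSO (2.16), and arg-10 (NCU08162) lay just past the 2-fold line. Glutamate dehydrogenase genes went opposite ways: gdh-1 (NCU00461), of the NAD-dependent enzyme that breaks glutamate down, had 69.95 FPKM with staurosporine and 11.001 FPKM with DMSO (2.56), and am (NCU01195), of the NADP-dependent enzyme that makes it, had 421 and 1114 FPKM (-1.40). The gdh-1 level with staurosporine lay inside the range of the DMSO libraries, since the 0 Ca2+ DMSO library had 101 FPKM, and its log2 ratio in 0 Ca2+ medium was -3.57. Nucleotide synthesis had 10 of 30 genes lower (33.3%, against 14.9% of all) and 0 higher. Its median of -0.65 became 0.29 on the FPKM-sum rescaling. The purine gene ad-4 (NCU06187) had 112 FPKM with staurosporine and 428 FPKM with DMSO (-1.93). Of 71 plant polysaccharide hydrolase genes only 35 passed the filter, with a median level of 1.93 FPKM with DMSO. Of these, 13 (37.1%, against 13.4% of all) were higher and 1 lower, with a median ratio of 0.71. This median was 0.19 without the filter, and 0.27 both with a pseudocount of 5 FPKM and at a minimum mean of 10 FPKM. The largest of them, NCU09976, annotated as a rhamnogalacturonan acetylesterase, follows NCU09975 on the chromosome. It had 8.31 FPKM with staurosporine and 0.111 FPKM with DMSO (3.07), and passed the filter only through the staurosporine library.

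Genes that move or bind calcium were higher or within 2 times, never lower by the size rule. Of 28 calcium-handling genes that passed the filter, 12 (42.9%, against 13.4% of all) were at least 2 times higher and 0 lower, with a median of 0.64 beside 0.11. The calcium-pumping ATPase genes were prominent: nca-2 (NCU04736), of the plasma membrane type, had 103 FPKM with staurosporine and 26.7 FPKM with DMSO (1.90), nca-1 (NCU03305) had 112 and 43.5 FPKM (1.34), and pmr-1 (NCU03292), of the Golgi type, had 39.7 and 18.3 FPKM (1.08). The vacuolar calcium and proton exchanger gene cax (NCU07075) had 37.9 FPKM with staurosporine and 12.4 FPKM with DMSO (1.54). The highest was NCU01504, annotated as a calcineurin binding protein, with 430.3 FPKM with staurosporine and 63.7 FPKM with DMSO (2.74), followed by the annexin gene anx14 (NCU04421, 44.1 and 8.67 FPKM, 2.22). Next came ena-1 (NCU05046), with the product name calcium-transporting ATPase 3, at 151.8 and 35.1 FPKM (2.08). Its level in the 0 Ca2+ DMSO library was 118.9 FPKM. The gene annotated as the channel subunit Cch1, smco-1 (NCU02762), had 9.62 and 3.88 FPKM (1.12). The calmodulin gene cmd (NCU04120), the central calcium sensor, was the lowest of the list with 441 FPKM with staurosporine and 859 FPKM with DMSO (-0.96). The medians of the same 28 genes were -0.16 in 0 Ca2+ medium and 0.21 in 20 mM CaCl2 medium, and nca-2 had log2 ratios of -1.07 and 0.78 there. Among the monovalent cation pumps, ph7 (NCU08147), a P-type ATPase gene for sodium or potassium, had 95.4 FPKM with staurosporine and 6.89 FPKM with DMSO (3.61), and pma-1 (NCU01680), the proton pump of the plasma membrane, had 1976 and 969 FPKM (1.03).

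Most genes of protein turnover had ratios above 0 and within 2 times on the deposited scale. On the FPKM-sum rescaling the medians of the proteasome list and the vesicle traffic list were 1.34 and 1.32. The 34 proteasome genes had a median of 0.43, with 32 of 34 ratios above 0 but only 1 at least 2 times higher, the activator gene NCU05620 (44.6 FPKM with staurosporine and 15.7 FPKM with DMSO, 1.45). The 94 vesicle traffic and secretion genes had a median of 0.44, with 7 higher (7.45%, against 13.4% of all) and 2 lower (2.13%, against 14.9%). NCU03387, for the vesicle fusion ATPase SEC18, had the largest ratio, with 103 FPKM with staurosporine and 35.7 FPKM with DMSO. Ubiquitin conjugation had 10 of 53 genes higher (18.9%, against 13.4% of all) and 1 lower, with a median of 0.30. Among 12 genes of autophagy and cell death 5 (41.7%, against 13.4% of all) were higher and 0 lower, with a median of 0.57. They were a Bax inhibitor family gene, NCU02463 (58.6 and 19.0 FPKM, 1.57), the autophagosome coat gene atg-8 (NCU01545, 413 and 172 FPKM, 1.26), the kinase gene apg-1 (NCU00188, 10.7 and 4.27 FPKM, 1.16), NCU06672 for an autophagy activating enzyme (1.05), and parp (NCU08852, 2.18 and 0.535 FPKM, 1.05). The metacaspase-1B gene NCU02400 had 32.9 FPKM with staurosporine and 23.8 FPKM with DMSO (0.45). Chaperones divided: the ribosome-associated zuotin gene NCU03009 had 74.8 FPKM with staurosporine and 563 FPKM with DMSO (-2.90) and hsp70-2 (NCU02075) 527 and 2579 FPKM (-2.29), while the endoplasmic reticulum chaperone gene grp78 (NCU03982) had 641 and 258 FPKM (1.31). Of 44 chaperone genes 3 were higher (6.82%, against 13.4% of all) and 7 lower (15.9%, against 14.9%). The median of -0.29 became 0.60 on the FPKM-sum rescaling.

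Genes needed for fusion between germlings were lower or within 2 times. Germlings of this fungus find and fuse with each other by a signalling dialogue that uses the MAK-2 kinase and the SO protein. Of 22 fusion genes, 10 (45.5%, against 14.9% of all) were at least 2 times lower and 0 higher, with a median of -0.83; on the FPKM-sum rescaling that median was 0.08 and on the length-weighted one -0.08. Prm1 (NCU09337), for a protein of plasma membrane merger, had 4.24 FPKM with staurosporine and 45.7 FPKM with DMSO (-3.15). The cell surface gene ham-7 (NCU00881) had 67.0 FPKM with staurosporine and 244 FPKM with DMSO (-1.85), ham-8 (NCU02811) had 34.5 and 147 FPKM (-2.07), and so (NCU02794) had 19.7 and 59.9 FPKM (-1.56). The NADPH oxidase gene nox-1 (NCU02110) and its regulator nor-1 (NCU07850) had log2 ratios of -1.77 and -1.41, and the scaffold gene ham-5 (NCU01789) -1.41. The kinase gene mak-2 (NCU02393) itself had 154 FPKM with staurosporine and 280.04 FPKM with DMSO (-0.86). The 3 members most above 0 were nrc-1 (NCU06182, 0.94), ham-2 (NCU03727, 0.72) and ada-3 (NCU02896, 0.69). The fusion list had medians of -0.58 in 0 Ca2+ medium and -0.08 in 20 mM CaCl2 medium.

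Cell wall genes showed both directions within a family. Of 13 chitin and glucan synthesis genes 3 (23.1%, against 13.4% of all) were higher and 1 (7.69%, against 14.9%) lower, with a median of 0.74. The chitin synthase gene chs-1 (NCU03611) had 103 FPKM with staurosporine and 49.5 FPKM with DMSO (1.05), and the alpha-glucan synthase gene NCU02478 had 23.3 and 8.16 FPKM (1.41). The UDP-glucose dehydrogenase gene NCU08228, of sugar nucleotide supply, had 3.86 FPKM with staurosporine and 52.3 FPKM with DMSO (-3.46). Among 62 cell wall proteins and hydrolases 12 were higher (19.4%, against 13.4% of all) and 6 lower (9.68%, against 14.9%), with a median of 0.20. The endochitinase gene gh18-5 (NCU04554) had 223 FPKM with staurosporine and 15.1 FPKM with DMSO (3.80), and gel-4 (NCU07253), which cross-links wall glucan, had 723 and 220.03 FPKM (1.71). On the lower side the anchored wall protein gene acw-10 (NCU03013) had 23.2 FPKM with staurosporine and 187 FPKM with DMSO (-2.96), and ncw-1 (NCU05137) had 2.54 and 23.8 FPKM (-2.81). The ncw-1 level with staurosporine lay inside the range of the DMSO libraries, since the 0 Ca2+ DMSO library had 2.44 FPKM.

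Antioxidant genes were split, 10 of 39 higher (25.6%, against 13.4% of all) and 9 lower (23.1%, against 14.9%); the median of -0.18 became 0.74 on the FPKM-sum rescaling. The catalase genes went opposite ways: cat-1 (NCU08791), the catalase of conidia, had 37.4 FPKM with staurosporine and 2.88 FPKM with DMSO (3.30), whereas cat-3 (NCU00355), the catalase of growing hyphae, had 2.12 and 37.4 FPKM (-3.62). Among the higher members were 2 glutathione transferase genes, gst-4 (NCU10521) at 138 FPKM with staurosporine and 38.3 FPKM with DMSO (1.82) and NCU04368 at 45.2 and 10.2 FPKM (2.05). The gene that starts glutathione synthesis, NCU01157 for glutamate-cysteine ligase, had 9.45 FPKM with staurosporine and 59.9 FPKM with DMSO (-2.54). Sulfur acquisition had 5 of 18 genes lower (27.8%, against 14.9% of all) and 0 higher. Its median of -0.63 became 0.34 on the FPKM-sum rescaling. The sulfate activation gene cys-11 (NCU01985) had 91.1 FPKM with staurosporine and 575 FPKM with DMSO (-2.65), and the sulfate permease gene cys-14 (NCU04433) had 8.62 and 51.3 FPKM (-2.44). Among the vitamin genes nic-7 (NCU03963) was lowest, with 12.8 FPKM with staurosporine and 172 FPKM with DMSO (-3.66); its symbol marks a nicotinic acid locus while its deposited product name is 5'-methylthioadenosine phosphorylase.

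Most regulator genes stayed within 2 times on the deposited scale. On the FPKM-sum rescaling the medians of the protein kinase list and the transcription factor list were 1.215 and 1.27. Of 102 protein kinase genes 15 (14.7%) were at least 2 times higher and 5 (4.90%) lower, beside 13.4% and 14.9% of all genes, with a median of 0.35. The largest were stk-20 (NCU02885), with 17.01 FPKM with staurosporine and 1.76 FPKM with DMSO (2.71), and on the lower side hcp-1 (NCU07221, -1.81). In the MAP kinase cascades 3 of 16 genes were lower (18.8%, against 14.9% of all) and 0 higher, and the median of -0.19 became 0.71 on the FPKM-sum rescaling. The lower genes included the osmosensing kinase gene os-2 (NCU07024, 54.3 and 116 FPKM, -1.09). Of 131 genes in the transcription factor list 24 (18.3%) were higher and 5 (3.82%) lower, with a median of 0.42. That list goes by symbol and product patterns. Its most abundant member, ace-2 (NCU06482), has the product name of a pyruvate dehydrogenase subunit. After NCU09974 the largest were ada-5 (NCU03931), with 42.7 FPKM with staurosporine and 5.98 FPKM with DMSO (2.65), and the bZIP gene NCU00223, with 54.2 and 11.2 FPKM (2.17). The clock gene frq (NCU02265) had 17.4 FPKM with staurosporine and 21.8 FPKM with DMSO (-0.31). The light-induced gene bli-3 (NCU07267) had 155 FPKM with staurosporine and 11.4 FPKM with DMSO (3.65), while the photolyase gene phr (NCU08626) had 4.41 and 18.03 FPKM (-1.82); the cultures were grown in constant light.

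Markers of conidia and of growth describe the cultures. All 8 conidial markers were found and 7 passed the filter. Of these 7, 4 were at least 2 times higher, beside 13.4% of all genes, but from low levels. With staurosporine con-10 (NCU07325) had 7.14 FPKM and with DMSO 1.11 FPKM (1.95), and con-8 (NCU09235) had 5.05 and 0.990 FPKM (1.60). In the same order con-6 (NCU08769) had 4.63 and 1.70 FPKM (1.06), and the hydrophobin gene eas (NCU08457) 39.4 and 18.02 FPKM (1.09). The eas level with staurosporine lay inside the range of the DMSO libraries, since the 20 mM CaCl2 DMSO library had 69.7 FPKM. Their sum was 282 FPKM with staurosporine and 172 FPKM with DMSO, most of it from ccg-1 (NCU03753), and con-13 (NCU07324) was near 0 in both, at 0.106 and 0.0438 FPKM. The 6 growth markers found summed to 2669 FPKM with staurosporine and 2918 FPKM with DMSO, and actin, act (NCU04173), had 1439 and 1396 FPKM (0.04). Markers of sexual development summed to 45.6 and 63.2 FPKM. Of the 7 found, 4 passed the filter and 0 passed 2 times, beside 13.4% of all genes higher and 14.9% lower. Their part in other results was not tested.

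Genes without a symbol or an informative product had shares close to those of all genes: 408 of 2969 were higher (13.7%) and 417 lower (14.05%). They held some of the largest values of the comparison. NCU04287 had 962 FPKM with staurosporine and 13.1 FPKM with DMSO (6.09), NCU04314 had 1344 and 26.9 FPKM (5.59), NCU05277 had 559.9 and 20.9 FPKM (4.68) and NCU03451 had 47.6 and 1.25 FPKM (4.43). On the lower side NCU01579 was listed at 0 with staurosporine and at 106 FPKM with DMSO, and NCU04276 had 3.31 FPKM with staurosporine and 387 FPKM with DMSO (-6.49). The ID NCU12021,NCU12022, which joins a pair of loci, had 3.15 FPKM with staurosporine and 296 FPKM with DMSO (-6.16), and NCU09848 had 1.41 and 131 FPKM (-5.77). Across the filter, 14 genes were listed at 0 in the staurosporine library and 9 in the DMSO library.

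**Figure D3:**
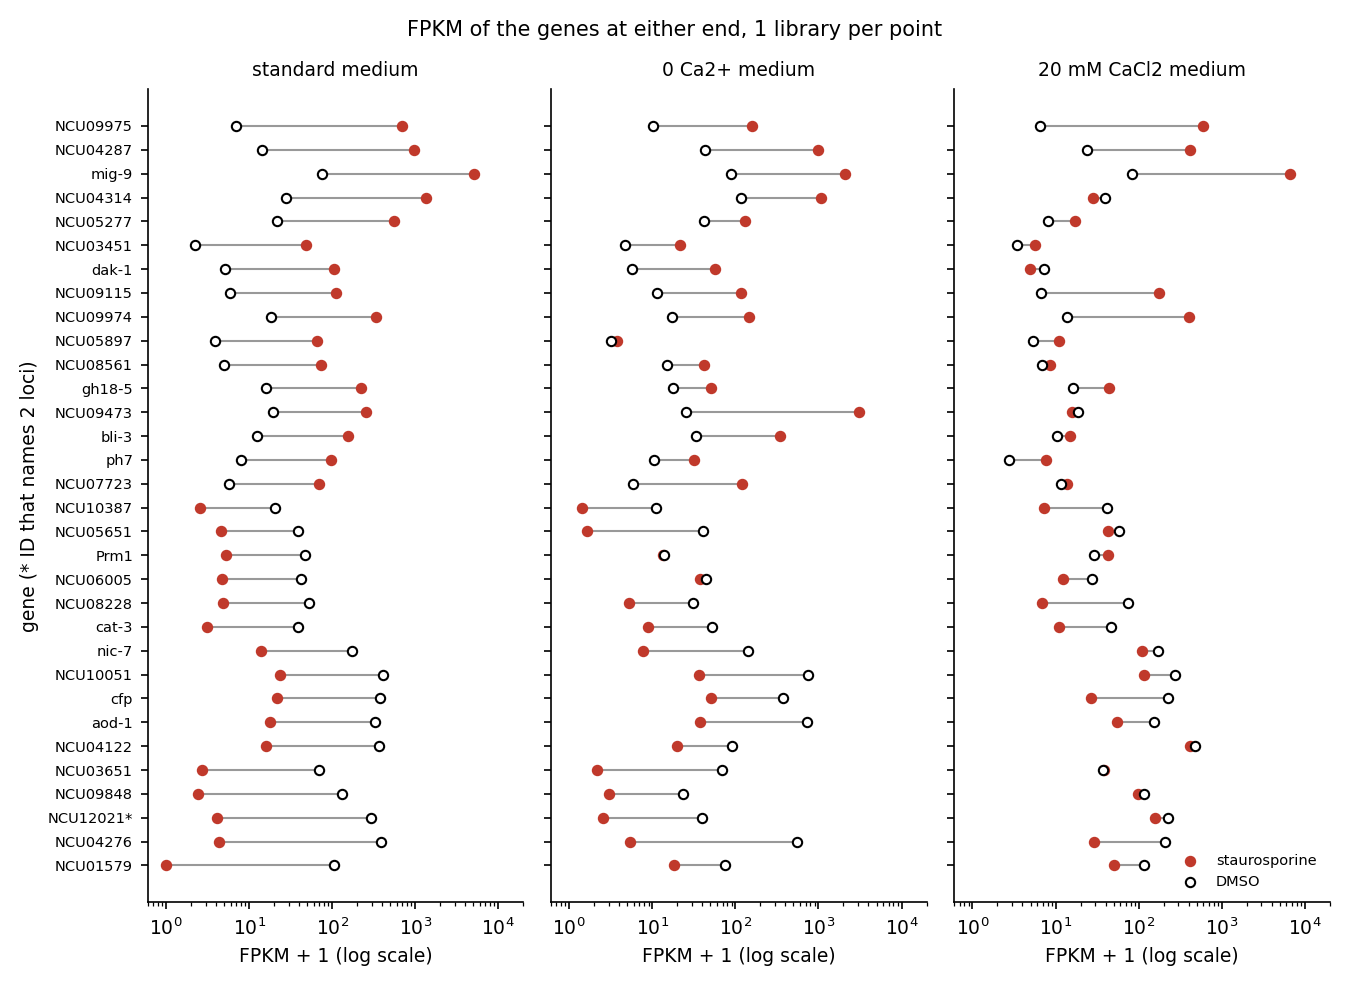
FPKM + 1 on a log scale for the 12 highest and 12 lowest genes with a name and the 4 at each end without, ordered by their ratio in standard medium; filled points are the staurosporine library and open points the DMSO library of each medium, 1 library a point. In the 20 mM CaCl2 panel mig-9, NCU09975, NCU09974 and NCU09115 keep a wide gap, while for dak-1, NCU04314 and NCU03651 the points nearly meet.

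Set beside the other media, the standard medium lay between them in the number of genes past 2 times. In 0 Ca2+ medium 18.7% of genes were higher and 20.9% lower, and in 20 mM CaCl2 medium 2.62% were higher and 6.16% lower; these comparisons share no library with the standard one, and none was tested against it. Of the 958 genes higher in standard medium, 420 (43.8%) were also at least 2 times higher in 0 Ca2+ medium and 95 (9.92%) in 20 mM CaCl2 medium. Of the 1071 lower genes, 667 (62.3%) were also lower in 0 Ca2+ medium and 188 (17.6%) in 20 mM CaCl2 medium. Only 35 of the higher and 83 of the lower genes passed 2 times in the same direction in all 3 media. For 478 of the higher (49.9%) and 299 of the lower (27.9%), neither other medium passed it in that direction. Some genes passed it in the opposite direction. Of the higher genes 45 (4.70%) were at least 2 times lower in 0 Ca2+ medium and 36 (3.76%) in 20 mM CaCl2 medium. Of the lower genes 32 (2.99%) and 11 (1.03%) were at least 2 times higher there.

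Several lists stood at different places in the 3 media. The genes of the cytosolic ribosome stood at a median of -2.10 in standard medium, -0.70 in 0 Ca2+ medium and -0.79 in 20 mM CaCl2 medium. Ribosome biogenesis genes had -1.57 in standard medium but -3.73 in 0 Ca2+ medium and 0.41 in 20 mM CaCl2 medium, so the order of the ribosome lists differed by medium. Complexes II to V had -1.15 in standard medium, 0.02 in 0 Ca2+ medium and -0.66 in 20 mM CaCl2 medium. Fatty acid and acetyl-CoA synthesis had 1.05 in standard medium, -0.59 in 0 Ca2+ medium and 0.14 in 20 mM CaCl2 medium. The DMSO libraries gave ribosomal protein genes nearly the same level, with medians of -0.03 and 0.06 for the 0 Ca2+ and the 20 mM CaCl2 library over the standard one.

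Some genes were farther out in standard medium than in both other media; the 8 at each end with the widest gap were picked after their values were seen. For Prm1 (NCU09337) the log2 ratio was -3.15 in standard medium, -0.02 in 0 Ca2+ medium and 0.55 in 20 mM CaCl2 medium. Part of that gap comes from the DMSO side, since Prm1 had 45.7 FPKM in the standard DMSO library, 12.8 in the 0 Ca2+ and 28.3 in the 20 mM CaCl2 DMSO library. The permease gene NCU05897 had 4.10, 0.24 and 1.04 in the same order of media, and its DMSO levels of 2.85, 2.18 and 4.38 FPKM lay close together. The calcineurin binding protein gene NCU01504 had 2.74, 0.54 and 0.62, with 63.7, 53.6 and 44.7 FPKM in the DMSO libraries. The endochitinase gene gh18-5 (NCU04554) had 3.80, 1.51 and 1.45, and the glucose transporter gene NCU04963 had 1.69, -1.52 and -0.58. These differences between media were not tested.

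A neighbour of a higher or lower gene was more often on the same side than a gene at large. Gene order was taken from the RefSeq table of assembly NC12. Of 1481 tested neighbours of genes at least 2 times higher, 324 (21.9%) were also higher, beside 13.4% of all genes, and 183 (12.4%) were lower. Of 1723 tested neighbours of lower genes, 368 (21.4%) were also lower, beside 14.9% of all. There were 5 runs of 4 or 5 higher genes and 6 runs of 4 or 5 lower genes. Strand was not recorded in the files, so reads of overlapping neighbours cannot be told apart, and their part in these shares was not tested.

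Several runs joined genes of known function. On chromosome I, NCU02478 to NCU02482 held an alpha-glucan synthase gene, a glutamine synthetase gene, a dehydrogenase gene and both NCU02481 and tca-2 (NCU02482) of the methylcitrate cycle, with log2 ratios of 1.41, 1.18, 1.22, 1.73 and 1.75. On chromosome VII, NCU05897 to NCU05901 opened with the permease gene (4.10) and the flotillin domain gene NCU05899 (53.4 FPKM with staurosporine and 4.30 FPKM with DMSO, 3.36) and ended with NCU05900 (1.77) and NCU05901 (1.06). Also on chromosome VII, cfp (NCU02193) lay in a run of 5 lower genes, in which the other 4 lay between -1.57 and -1.02. On chromosome I a run of 5 lower genes held adv-1 (NCU07392, -1.16) and ham-9 (NCU07389, -1.23), both of the fusion list. On chromosome III the run NCU08225 to NCU08228 held a nickel transporter gene (-1.46) and the UDP-glucose dehydrogenase gene (-3.46), and its other genes had -2.66 and -1.70. On chromosome VI the run NCU05132 to NCU05135, which includes the UDP-glucose 4-epimerase gene NCU05133 (0.914 and 12.8 FPKM, -2.85), held 4 lower genes, down to that value.

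**Figure D4:**
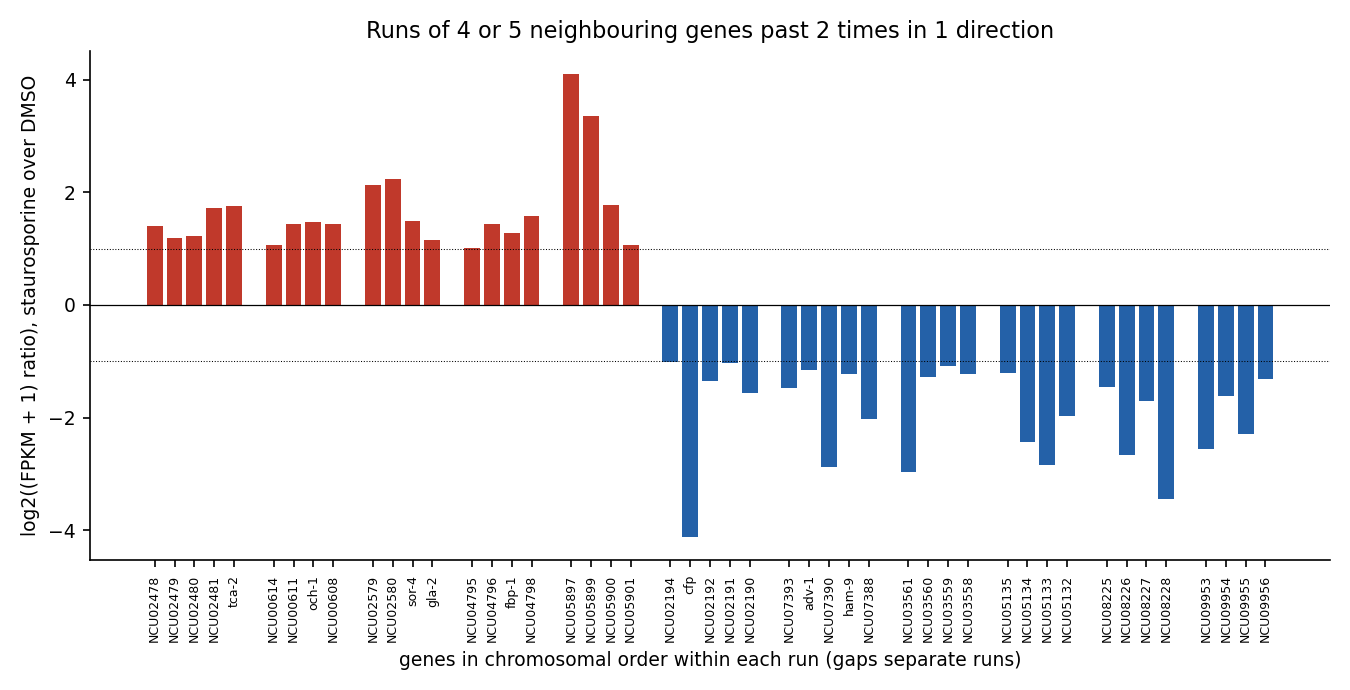
Bars give the log2((FPKM + 1) ratio of staurosporine over DMSO for each gene of the 11 runs of 4 or 5 neighbours, in chromosomal order, with gaps between runs and dotted lines at 2 times. The run opened by NCU05897 reaches 4.10 and the run with cfp reaches -4.13, and the other members mostly lie within 1 to 3 units of 0.

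Level and length of a gene went with its ratio. Of the 141 genes with a mean of at least 1000 FPKM, 109 (77.3%) were at least 2 times lower; these were 70 of 70 cytosolic ribosomal protein genes and 39 of 71 others. Only 5 of the 141 were higher, namely mig-9, both ATP citrate lyase genes, ccg-16 (NCU05495, 1.94) and pma-1. Among the 883 genes with a mean of 1 to 3 FPKM, 13.3% were higher and 6.00% lower. By gene length, known for 6866 of the tested genes (95.8%), genes of 1000 to 1500 bp had a median of -0.26, with 10.8% higher and 23.7% lower, and genes of 4000 bp and more a median of 0.43, with 16.6% higher and 5.58% lower. Without the cytosolic, mitochondrial and biogenesis lists of the ribosome these medians were -0.19 and 0.43. In 0 Ca2+ medium the order was turned, with 0.11 and -0.45 in the same length classes, and in 20 mM CaCl2 medium it was -0.43 and 0.15. The 67 genes under 600 bp did not follow the trend, with a median of 0.42. With the linear trend on length removed, 845 genes were higher and 1005 lower.

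**Figure D5:**
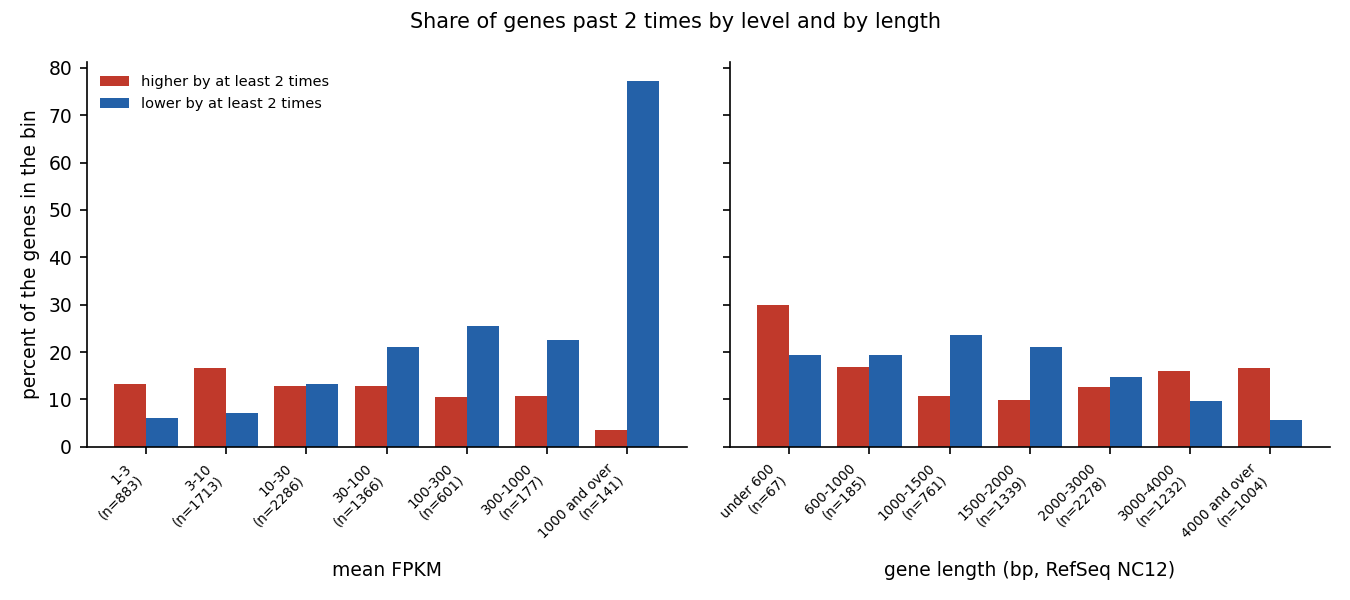
Bars give the percent of genes at least 2 times higher and at least 2 times lower in bins of mean FPKM (left) and of gene length (right), with the number of genes in each bin. The share of lower genes reaches 77.3% in the top bin of level, and declines from 23.7% at 1000 to 1500 bp to 5.58% at 4000 bp and more.

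Values close to the cut-offs show how sharp the rule is. The genes nearest the 2-fold line were NCU05314 at 1.0001 and NCU02524 at 0.99996 on the higher side, and NCU05457 at -1.0 and NCU01977 at -0.9997 on the lower side. At the filter on level, NCU10703 just passed with 1.21 FPKM with staurosporine and 0.788 FPKM with DMSO, and NCU03513 just missed it with 1.07 and 0.928 FPKM.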

How the data were processed

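Poly(A) RNA was sequenced in reads of 50 bp. The submitters' processing notes name TopHat2 2.0.4, Cufflinks 2.0.2 and Cuffdiff. The genome build and gene models of the tables were not given in the sources used. Per the file headers, the 5 deposited tables hold the authors' FPKM, written with decimal commas, for 9691 genes. No other value, and none of the deposited ratios, p-values or calls, was used. A library present in several tables had identical FPKM in each (0 of 9691 genes differed). Depth is unknown, so no counting interval is given, and a gene listed at 0 may be one whose estimate failed.

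From the FPKM, log2((FPKM + 1) ratio) was computed for genes with a mean of at least 1 FPKM over both libraries, with Python 3.11.15, pandas 2.3.3 and numpy 2.4.6; figures used matplotlib 3.10.9. Genes past an absolute value of 1 are counted as higher or lower. The computation was tested on simulated data. Products come from the tables and symbols, lengths and gene order from the RefSeq table of NC12, in which 9141 IDs were found by locus tag; 4617 IDs have a symbol or informative product and 66 join 2 or more loci. No coordinates or sequences are reported. The 58 lists go by symbol and product patterns and can share genes. The genes described and the lists were chosen with earlier results of these data known. Genes named by rule are the 12 highest and 12 lowest with a name, 4 at each end without, the 6 most abundant of each library, up to 4 members and the most abundant or defining members of a list, members of runs of at least 4, genes next to the filter, and markers. Many further list members described were chosen after their values were seen, among them nca-1, pmr-1, cax, so, cel-1 and cel-2. These further members are not part of the counts of named genes given under other settings. Alternatives were pseudocounts of 0.1 and 5, other filters, 3 scalings, the mean of the 3 DMSO libraries as reference, and removal of the length trend.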

Additional observations from a re-analysis of the deposited data

Results flagged for a closer look

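For 20 named genes the log2 ratio was past 2 times in standard medium and past 2 times in the opposite direction in another medium. Each medium has 1 library a side, so these differences were not tested.

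Of all 958 genes higher in standard medium, 45 (4.70%) were at least 2 times lower in 0 Ca2+ medium, beside 20.9% of all genes there. The named genes held 13 of these. Transporter genes among them were hgt-1 (NCU10021), with 1.56 in standard medium and -2.70 in 0 Ca2+ medium, the glucose transporter genes NCU05627 (1.75 and -2.91) and NCU04963 (1.69 and -1.52), the amino acid permease gene NCU05776 (1.55 and -1.82) and the MDR-type gene NCU07546 (2.18 and -1.55). The ion pump genes pma-1 (NCU01680) and nca-2 (NCU04736) had 1.03 and 1.90 in standard medium, and -2.73 and -1.07 in 0 Ca2+ medium. The glutamate dehydrogenase gene gdh-1 (NCU00461) had 2.56 and -3.57. The regulators NCU00223 and vad-2 (NCU02094) had 2.17 and 1.998 in standard medium, and -1.56 and -1.23 in 0 Ca2+ medium. The ATP citrate lyase gene NCU06783 had 1.62 and -1.05, the alpha-glucan synthase gene NCU02478 had 1.41 and -1.15, and NCU00447, for serine palmitoyltransferase, which starts sphingolipid synthesis, had 1.03 and -1.07.

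In the other direction, 32 of all 1071 lower genes (2.99%) were at least 2 times higher in 0 Ca2+ medium, beside 18.7% of all genes there. The named genes held 4 of these. NCU11307, annotated as CCC1, a family of vacuolar iron transporters in yeast, had -1.60 in standard medium and 1.25 in 0 Ca2+ medium, and the monooxygenase gene NCU01086 had -1.30 and 1.65. NCU02192 had -1.35 and 1.60, and NCU07390, listed at 0 with staurosporine in standard medium, had -2.87 and 2.86.

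The glutamine synthetase gene NCU02479 and its neighbour NCU02480, a dehydrogenase gene, had 1.18 and 1.22 in standard medium, and -2.32 and -1.49 in 20 mM CaCl2 medium. The copper amine oxidase gene NCU05518 had 1.84 in standard medium and -1.07 in 20 mM CaCl2 medium. Of all 958 higher genes, 36 (3.76%) were at least 2 times lower in that medium, beside 6.16% of all genes there.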

How the results depend on the processing

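No paired analysis was possible because each group holds 1 library and the labels carry no replicate numbers; no library could be left out. Of the 958 higher genes, 497 remained with a pseudocount of 5 FPKM and 556 at a minimum mean of 10 FPKM, and no other gene was called. Rescaling both libraries to an FPKM sum of 1000000 gave 3500 higher and 367 lower genes, and to the same FPKM times length 2897 and 469. The number of lists with a median of -1 or less was 7 as deposited and 2, both cytosolic ribosomal subunits, on either rescaling. Lists with a median of 1 or more numbered 1 as deposited, 27 on the FPKM-sum rescaling and 19 on the length-weighted one. The lower counts at that pseudocount and that minimum were 835 and 895. The other settings gave 747 to 1210 higher and 1005 to 1170 lower genes. Of the 276 named genes with a ratio of at least 1 in size, and the 8 such list medians, 0 changed sign under any setting that gave a value. For the genes this was mostly set in advance. Another pseudocount or filter cannot change the sign of a gene's ratio. The rescalings to equal sums shift log2 FPKM ratios by 0.91 and 0.75, less than the 1 required. Only the mean of the 3 DMSO libraries and removal of the length trend could have changed such a sign. Of the 64 named genes with a smaller ratio, 28 changed sign on the FPKM-sum rescaling, 21 on the length-weighted one and 2 against the mean of the 3 DMSO libraries; of the 50 smaller list medians it was 19, 16 and 3, and 1 to 3 without the filter, at the higher minimum and with the length trend removed. What depth would add cannot be told, since read counts are not part of the tables used.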
